A study of Homo sapiens with 10 samples.

Results

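A group of 9 neighbouring genes on the long arm of human chromosome 14 were followed through 7 ovarian cancer cell lines, because a stretch of them gave no reads in the line COV504. The genes are, in genome order, VCPKMT, SOS2, ATP5S, MAP4K5, ATL1, SAV1, NIN, PYGL and TMX1. They were picked by name, after their missing counts in COV504 had been seen, and every transcript whose gene name in the deposited annotation matched was kept. That gave 9 of 57110 gene identifiers and 22 of 99493 transcripts. The 9 did not all share the property they were listed for: 6 of them (ATP5S, MAP4K5, ATL1, SAV1, NIN and PYGL) had no count in COV504, while VCPKMT, SOS2 and TMX1 had 11, 14 and 136. The silent stretch therefore lay inside the list, with VCPKMT and SOS2 on one side and TMX1 on the other. Its extent is given by position below, and the COV504 levels of the 9 genes, which chose them, are a description without a test.

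The series measured RNA of 7 human ovarian cancer lines by nanopore sequencing, which reads long single molecules, to benchmark a transcript quantification package. IGROV-1 was sequenced 4 times, in 2 replicates on each of the instruments PromethION and MinION, the latter the smaller. The others, COV504, COV362, SK-OV-3, OVTOKO, OVKATE and OVMANA, were sequenced 1 time each, on the PromethION. The labels name the lines only: they give no treatment, no engineered allele and no passage for any of them, and do not say whether the IGROV-1 replicates came from separate cultures, so p-values measure only the spread between these libraries.

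The genes encode proteins of different kinds. SAV1 is the scaffold that joins the kinases STK3 and STK4 of the Hippo pathway, in which LATS kinases hold the growth-promoting coactivators YAP1 and WWTR1 in the cytoplasm, away from their TEAD partners. PYGL is the liver form of glycogen phosphorylase, which releases glucose units from glycogen. NIN (ninein) anchors microtubules at the centrosome, and MAP4K5 is a kinase of the STE20 family that signals towards stress-activated kinases. ATL1 (atlastin) is a GTPase that fuses tubules of the endoplasmic reticulum, ATP5S is a coupling factor of the mitochondrial ATP synthase, and TMX1 is a thioredoxin-like enzyme of the endoplasmic reticulum membrane. VCPKMT methylates a lysine of the ATPase VCP, and SOS2 loads RAS proteins with GTP.

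RefSeq promoter windows of build GRCh38.p14, each 300 bases long, matched 8 of the 9 genes and gave 9 promoters, since ATL1 has 2. ATP5S had none in the table. They are printed here 5′ to 3′ for 6 of the genes, each on the strand of its gene, so that promoters of genes with no count in COV504 (MAP4K5, SAV1, NIN and PYGL) can be read beside those of genes on either side that had counts (SOS2 and TMX1). Capitals mark CG dinucleotides, the sites at which human DNA can be methylated.
SOS2: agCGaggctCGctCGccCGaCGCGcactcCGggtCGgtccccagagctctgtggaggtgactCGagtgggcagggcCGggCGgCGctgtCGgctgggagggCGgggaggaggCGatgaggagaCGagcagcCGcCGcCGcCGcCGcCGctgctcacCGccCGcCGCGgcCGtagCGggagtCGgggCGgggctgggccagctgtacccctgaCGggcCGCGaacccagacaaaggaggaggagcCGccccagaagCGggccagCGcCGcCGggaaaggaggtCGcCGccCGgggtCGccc
MAP4K5: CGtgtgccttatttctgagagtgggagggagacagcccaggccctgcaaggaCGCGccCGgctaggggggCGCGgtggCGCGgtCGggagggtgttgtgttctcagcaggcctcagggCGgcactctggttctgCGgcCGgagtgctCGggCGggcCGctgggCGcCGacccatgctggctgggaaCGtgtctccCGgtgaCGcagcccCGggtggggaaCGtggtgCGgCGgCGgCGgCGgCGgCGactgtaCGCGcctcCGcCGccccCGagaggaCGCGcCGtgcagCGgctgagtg
SAV1: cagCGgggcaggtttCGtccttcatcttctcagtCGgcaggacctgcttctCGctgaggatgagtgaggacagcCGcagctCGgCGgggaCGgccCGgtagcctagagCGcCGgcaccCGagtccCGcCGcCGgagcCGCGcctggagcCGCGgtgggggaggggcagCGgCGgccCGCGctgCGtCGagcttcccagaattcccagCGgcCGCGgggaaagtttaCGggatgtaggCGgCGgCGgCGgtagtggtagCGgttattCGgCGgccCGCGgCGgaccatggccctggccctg
NIN: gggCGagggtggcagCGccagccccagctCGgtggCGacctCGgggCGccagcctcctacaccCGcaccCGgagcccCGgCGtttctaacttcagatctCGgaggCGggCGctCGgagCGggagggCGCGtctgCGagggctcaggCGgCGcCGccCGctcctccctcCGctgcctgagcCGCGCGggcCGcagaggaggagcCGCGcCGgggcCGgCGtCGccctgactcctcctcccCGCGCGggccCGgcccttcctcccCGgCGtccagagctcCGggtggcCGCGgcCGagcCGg
PYGL: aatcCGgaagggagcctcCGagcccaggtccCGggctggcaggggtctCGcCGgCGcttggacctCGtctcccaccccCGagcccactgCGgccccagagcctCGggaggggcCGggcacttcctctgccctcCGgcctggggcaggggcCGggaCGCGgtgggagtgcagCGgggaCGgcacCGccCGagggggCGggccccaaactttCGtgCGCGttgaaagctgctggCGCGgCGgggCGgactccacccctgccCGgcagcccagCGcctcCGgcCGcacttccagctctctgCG
TMX1: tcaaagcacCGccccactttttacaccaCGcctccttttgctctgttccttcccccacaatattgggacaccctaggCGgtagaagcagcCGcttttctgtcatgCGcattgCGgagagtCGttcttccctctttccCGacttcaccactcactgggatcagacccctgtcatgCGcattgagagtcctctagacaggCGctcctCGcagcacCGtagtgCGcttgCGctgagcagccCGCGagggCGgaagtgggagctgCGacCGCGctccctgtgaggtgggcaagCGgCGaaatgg
The SOS2 window lay on the minus strand at chr14:50231529-50231828, that of MAP4K5 on the minus strand at chr14:50532520-50532819 and that of SAV1 on the minus strand at chr14:50668257-50668556. The NIN window lay on the minus strand at chr14:50831113-50831412, that of PYGL on the minus strand at chr14:50944434-50944733 and that of TMX1 on the plus strand at chr14:51239997-51240296. The PYGL window lay just inside the gene: its transcript with the most counts, ENST00000216392, starts at 50944736. The window held the start of the lesser ENST00000544180, at 50944483. The windows of the 4 genes without counts held 38 (MAP4K5), 39 (SAV1), 44 (NIN) and 32 (PYGL) CG dinucleotides. SOS2 held 42, VCPKMT 35 and TMX1 22, so the values of genes with and without counts overlapped. The median over all 35116 promoter windows was 14. ATL1, also without counts, had the fewest of the 9 windows with 14 and 15, near that median. By the usual criterion of a CpG island (GC content of at least 50% and an observed to expected CG ratio of at least 0.6), 8 of the 9 windows qualified, against 46.9% of all windows. The GC box GGGCGG, searched on both strands, was found 6 times in the SOS2 window, 4 times for VCPKMT, 3 times for MAP4K5 and PYGL, 2 times for TMX1, once for NIN and not for SAV1, and 45.0% of all windows held it. The CCAAT motif, also on both strands, occurred in the TMX1 window among these 7, and in 34.6% of all windows. These are matches of letters, and neither DNA methylation nor factor binding was measured in the series.

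Library totals ranged from 1729782 estimated counts (OVTOKO) to 3666224 (IGROV-1 MinION replicate 1), and COV504 held 2247659, near the middle. Levels are given as CPM (the count divided by the library total in units of 1000000 counts). In COV504 the floor of 3 counts, put in place of 0 for fold bounds, is 1.33 CPM. Epithelial marker sums ran from 569 CPM (IGROV-1 MinION replicate 1) to 8895 (COV504), with WT1 at 0 in COV504, and in IGROV-1 CDH1 was at 0 in all 4 libraries and EPCAM between 0 and 1.5. Leukocyte markers summed to 0 to 16.4 CPM, with CD3E at 0 in every library, and fibroblast markers to 0.6 to 435, of which COV504 held 120. Endothelial markers summed to 0.5 to 25.8 CPM, with the highest sum in COV504 (CDH5 at 24.9 and VWF at 0); whether other cell types had a part in the results was not tested. In RNA from whole cultures, fewer cells that express a gene and less RNA per cell cannot be told apart.

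Walking along the chromosome, the stretch without reads in COV504 began at ATP5S and ended at PYGL. A gene was counted as informative when its median over the 6 other lines was at least 3 CPM, and as without counts when it had under 1 estimated count. In COV504 the second criterion was met by 5 informative genes in a row, ATP5S, MAP4K5, SAV1, NIN and PYGL, over 632.4 kb (chr14:50312329-50944736, GRCh38). ATL1 lies between MAP4K5 and SAV1 and also had no count. Its median over the other lines, 2.20 CPM, was below the limit, as was that of ABHD12B, the gene just outside it at 2.40 CPM, while MAP4K5 at 13.9 CPM was the lowest inside. Setting the limit at 1 CPM added ATL1, ABHD12B and AL606834.2 and gave 8 genes with the same start and end.

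On the side of the centromere, SOS2 was the last of the 9 genes with counts in COV504, and it ends at position 50231558, before the start of ATP5S at 50312329. Whether the counting used strand is not given in the sources used here, so reads where genes overlap could have been assigned to either gene.

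On the far side few genes were expressed beyond PYGL. TMX1, the next informative gene, starts 295.4 kb after PYGL at position 51240168, which sets an outer limit of 927.8 kb from the start of ATP5S. This interval held 25 gene identifiers of the series, of which 12 had at least 1 count in some library, and 9 of the 12 are protein-coding. In COV504 only the lincRNA AL358334.2, 11.5 kb beyond PYGL, had any, with 2 counts (0.9 CPM). That is below the floor of 3 counts but is not 0. The same RNA was at 0.6 CPM in OVTOKO, 0.8 in COV362 and 0 in the other libraries. TRIM9, a ubiquitin ligase mostly known from neurons, lies farther on and could have marked the edge, but it was at 0 in OVKATE and SK-OV-3 as well as in COV504, against 8.1 CPM in OVTOKO and 5.6 to 8.2 in IGROV-1. ABHD12B, a lipase-like gene that overlaps the PYGL transcript ENST00000532462, was at 0 in OVKATE, SK-OV-3, COV362 and COV504, at 4.8 CPM in OVMANA and 6.9 in OVTOKO, and at 15.9 to 17.9 in IGROV-1. Summed over the interval, COV504 had 2 counts, against 170 in OVKATE, the lowest of the other libraries, 237 in COV362, 278 in SK-OV-3, 604 in OVTOKO, 824 in OVMANA and 786 to 1434 in IGROV-1.

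**Figure D1:**
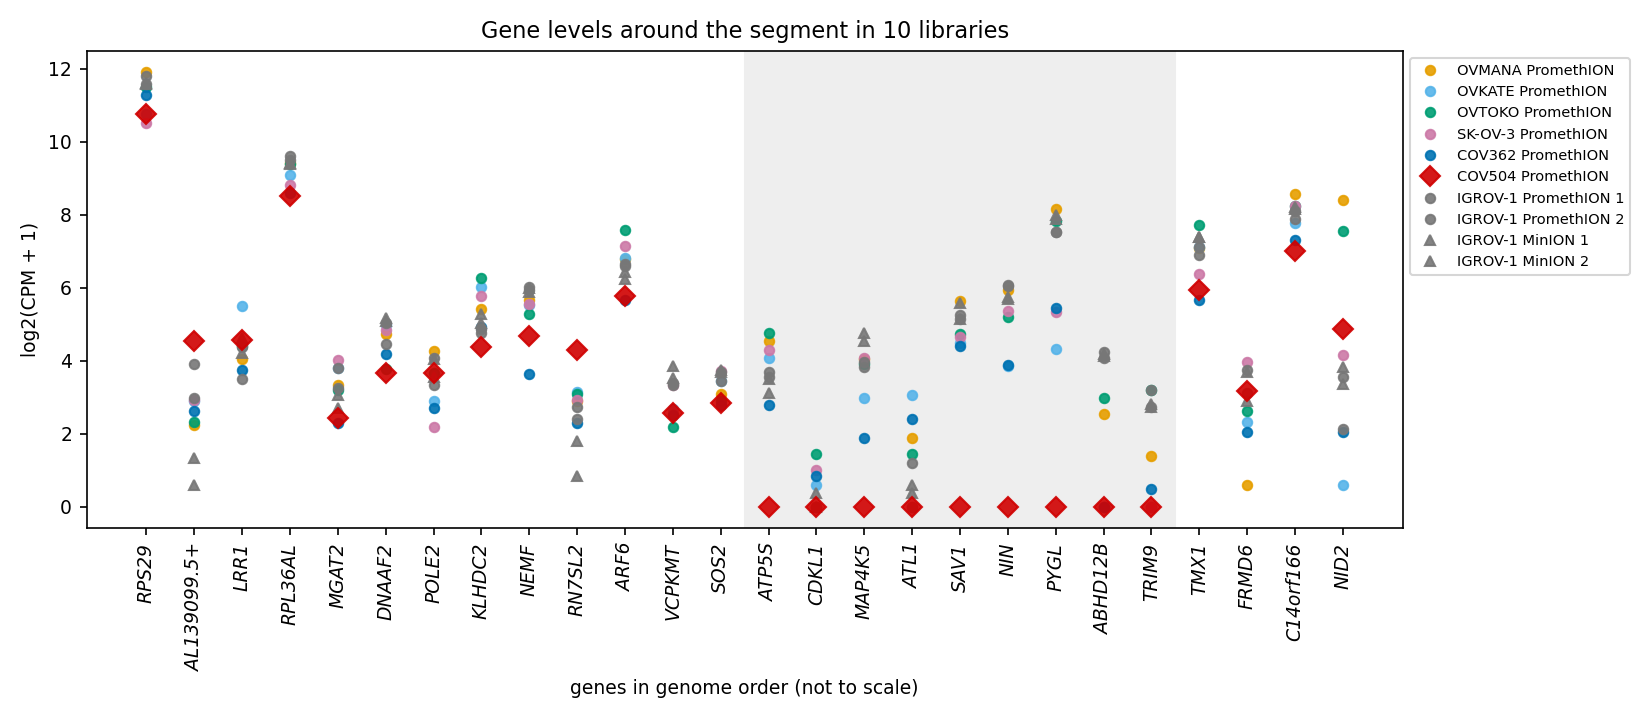
Levels of the genes around the silent stretch, in genome order on the x axis (not to scale), as log2(CPM + 1) on the y axis, with 1 symbol per library (COV504 as diamonds, MinION as triangles). The grey band is the interval from ATP5S to the start of TMX1: the COV504 diamonds lie at 0 for every gene drawn inside it and above 0 at every informative gene drawn on both sides.

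PYGL (ENSG00000100504, minus strand, chr14:50857891-50944736), which mobilises glycogen, varied most of the 8 genes with counts in all 6 other lines. It stood at 282.7 CPM in OVMANA, 18.8 in OVKATE, 227.8 in OVTOKO, 39.0 in SK-OV-3, 42.7 in COV362, 0 in COV504, 183.7 and 185.1 in IGROV-1 PromethION, and 251.5 and 237.0 in IGROV-1 MinION. OVMANA, OVTOKO and IGROV-1 formed a high group, and OVKATE, SK-OV-3 and COV362 a low one, with a 15.04-fold span from OVKATE to OVMANA. Even at the OVKATE level, 42.2 PYGL counts would have been expected at the depth of COV504. With the floor of 3 counts in place of 0, PYGL was at least 14.1-fold lower in COV504 than in OVKATE and at least 85.1-fold lower than the median of the other lines. Here and for the genes below, such a bound takes the level in the other lines as exact.

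SAV1 (ENSG00000151748, minus strand, chr14:50633636-50668331), the Hippo scaffold, was the most even of the 6 silent genes across the other lines. It was at 48.6 CPM in OVMANA, 21.3 in OVKATE, 25.4 in OVTOKO, 24.3 in SK-OV-3, 20 in COV362, 0 in COV504, 34.6 and 37.4 in IGROV-1 PromethION, and 34.1 and 47.0 in IGROV-1 MinION. The lowest lines with SAV1 counts, COV362, OVKATE, SK-OV-3 and OVTOKO, lay closer to one another than the 2 MinION libraries of IGROV-1 did. IGROV-1 and OVMANA were higher. Against COV362, the lowest of them, COV504 was at least 14.97-fold lower, and 44.9 counts would have been expected there.

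NIN (ENSG00000100503, minus strand, chr14:50719763-50831121) encodes the microtubule anchor of the centrosome. It stood at 60.4 CPM in OVMANA, 13.4 in OVKATE, 35.8 in OVTOKO, 40.5 in SK-OV-3, 13.7 in COV362, 0 in COV504, 65.4 and 66.6 in IGROV-1 PromethION, and 50.5 and 53.1 in IGROV-1 MinION. OVKATE and COV362 were low and next to each other, and IGROV-1 and OVMANA high. COV504 was at least 10.01-fold below OVKATE, where 30.0 counts would have been expected at its depth.

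ATP5S (ENSG00000125375, plus strand, chr14:50312329-50335558), named DMAC2L in newer annotations, encodes the coupling factor of ATP synthase. It was at 22.4 CPM in OVMANA, 15.8 in OVKATE, 26.0 in OVTOKO, 18.7 in SK-OV-3, 5.9 in COV362, 0 in COV504, 12 and 10.7 in IGROV-1 PromethION, and 7.6 and 10.2 in IGROV-1 MinION. OVTOKO was highest and COV362 lowest among the lines with counts. COV504 was at least 4.403-fold below COV362 and at least 13.0-fold below the median of the other lines.

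For MAP4K5 (ENSG00000012983, minus strand, chr14:50418525-50532609), the STE20-family kinase, the counts were thinner. It was at 15.5 CPM in OVMANA, 6.9 in OVKATE, 13.9 in OVTOKO, 15.7 in SK-OV-3, 2.7 in COV362, 0 in COV504, 13.2 and 14.6 in IGROV-1 PromethION, and 22.4 and 26.0 in IGROV-1 MinION. The COV362 level rested on 7 counts, and at that level only 6.16 would have been expected in COV504. With the floor of 3 counts in place of 0, COV504 was 2.06-fold below COV362 and 10.4-fold below the median. The first ratio leaves out the counting error of the COV362 level.

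ATL1 (ENSG00000198513, plus strand, chr14:50533026-50633068), the atlastin gene, did not set COV504 apart. It was at 2.7 CPM in OVMANA, 7.4 in OVKATE, 1.7 in OVTOKO, 0 in SK-OV-3, 4.3 in COV362, 0 in COV504, 0 and 1.3 in IGROV-1 PromethION, and 0.5 and 0.3 in IGROV-1 MinION. SK-OV-3 and 1 IGROV-1 library also had none, and at the median level 4.95 counts would have been expected in COV504, close to the floor. ATL1 and MAP4K5 start 417 bp apart on opposite strands.

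The 3 genes outside the stretch had counts in every library. VCPKMT (ENSG00000100483, minus strand, chr14:50108633-50116600), the methyltransferase, was at 4.8 CPM in OVMANA, 5.4 in OVKATE, 3.5 in OVTOKO, 9.1 in SK-OV-3, 4.7 in COV362, 4.9 in COV504, 9.0 and 9.4 in IGROV-1 PromethION, and 10.6 and 13.6 in IGROV-1 MinION. SOS2 (ENSG00000100485, minus strand, chr14:50117120-50231558), the RAS activator, was at 7.5 CPM in OVMANA, 9.9 in OVKATE, 6.4 in OVTOKO, 12.2 in SK-OV-3, 5.9 in COV362, 6.2 in COV504, 9.8 and 12 in IGROV-1 PromethION, and 12 and 12.4 in IGROV-1 MinION. COV504 lay inside the range of the other lines for both, at 0.955 of their median for VCPKMT and 0.717 for SOS2. TMX1 (ENSG00000139921, plus strand, chr14:51240168-51257546), the thioredoxin-like enzyme, was at 135.7 CPM in OVMANA, 137.5 in OVKATE, 211.0 in OVTOKO, 82.6 in SK-OV-3, 49.8 in COV362, 60.5 in COV504, 138.4 and 119.0 in IGROV-1 PromethION, and 165.8 and 167.8 in IGROV-1 MinION. For TMX1, COV504 and COV362 were the lowest lines, COV504 at 0.458 of the median.

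At the level of transcripts, all 17 annotated transcripts of the 6 silent genes were at 0 in COV504. Of the 22 transcripts of the 9 genes, 18 had at least 1 count in some library. MAP4K5, SAV1 and TMX1 are represented by 1 transcript each, and VCPKMT and SOS2 gave counts from 1 of their 2. For PYGL, the leading transcript ENST00000216392 (3048 nt) held 80.5% to 91.7% of the counts in the 9 libraries with PYGL and ENST00000544180 the remaining 8.3% to 19.5%. For ATP5S, ENST00000311459 (10212 nt) held 68.0% to 100%.

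NIN has 6 annotated transcripts. The leading transcript in all 9 libraries with NIN counts was ENST00000245441 (10293 nt), with 74.3% of NIN counts in OVMANA (95% Wilson interval 65.6% to 81.5%) and 40.0% in COV362 (25.6% to 56.4%). A shorter transcript, ENST00000382041 (6496 nt), made up 34.3% in COV362 (20.8% to 50.8%) and 2.7% in OVMANA (0.9% to 7.5%). Within IGROV-1 it made up 31.4% and 27.7% on the PromethION and 23.8% and 17.4% on the MinION. In OVKATE it had no count, and the interval reached 12.5%. The OVMANA and COV362 intervals did not overlap for either transcript; they cover counting error only, and each line is 1 library, so the shares have no replicate check between lines.

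**Figure D2:**
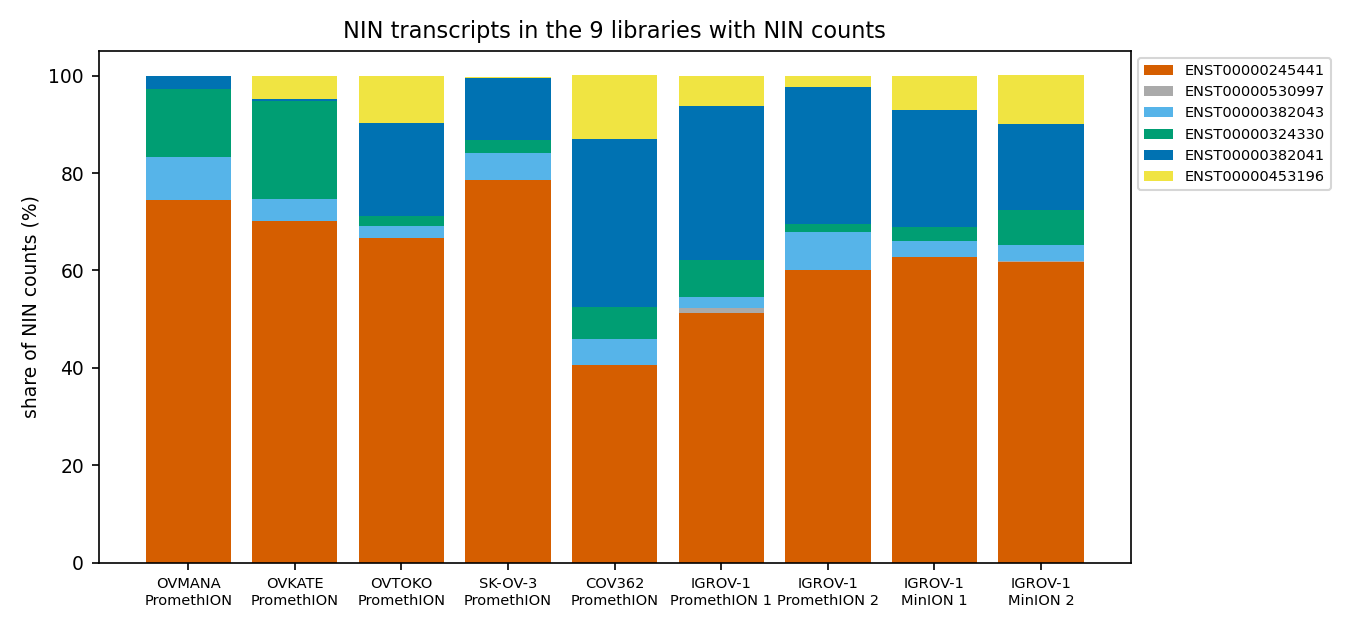
Share of NIN counts (%, y axis) held by each annotated NIN transcript, as stacked bars, in the 9 libraries with NIN counts (x axis). ENST00000245441 is the largest part of every bar, from 40.0% in COV362 to 78.8% in SK-OV-3.

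To see how common such stretches are, each line was scanned for genes that had no count in it while the other lines expressed them. In COV504, 153 of 10678 informative genes (1.43%) were without counts, and the 5-gene run on chromosome 14 was the longest. The next longest in COV504 were 2 runs of 3 genes on chromosome 19 (EVI5L, PRR36 and MAP2K7, over 84.2 kb, and ZSCAN18, ZNF329 and ZNF274, over 129.7 kb). With a stricter criterion, at least 3 CPM in each of the 6 other lines, 25 of 8097 genes (0.309%) had no count in COV504. ATP5S, SAV1, NIN and PYGL were 4 of those 25, and MAP4K5 missed the criterion by its 2.7 CPM in COV362.

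Runs of this length were not limited to COV504. In IGROV-1 the longest was 8 genes over 1657.7 kb on chromosome X, in OVTOKO 6 over 220.8 kb on chromosome 19, in OVKATE 5 over 62.3 kb on chromosome 17 and in OVMANA 4 over 874.2 kb on chromosome 12. For COV362 the longest run was 2 genes, and for SK-OV-3 it was 3. The OVTOKO run was made of zinc finger genes and the OVKATE run of HOXB2 to HOXB6, and the IGROV-1 run held several ARMCX genes with BEX4, TCEAL8 and TMSB15A. The OVMANA run (RASSF8, BHLHE41, SSPN and ITPR2) and the SK-OV-3 run (CYB5D2, ANKFY1 and UBE2G1) joined genes of unrelated families, as the COV504 run did. Both lines with longer runs had larger shares of genes without counts, 4.18% in IGROV-1 and 4.25% in OVTOKO, but OVMANA had 4.39% with a run of 4, and OVKATE had 1.41%. The shares were 1.73% in SK-OV-3 and 0.6% in COV362. Several lines had more than their longest run: runs of 4 or more genes numbered 7 in OVTOKO and 3 in IGROV-1. There was 1 such run each in COV504, OVKATE and OVMANA, and 0 in SK-OV-3 and COV362.

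The neighbourhood of the stretch was low in COV504, and so was the chromosome. Among the 10 informative genes on each side, the median log2 ratio of COV504 to the median of the other lines was -0.55 (on the log2(CPM + 1) scale). It was -0.77 before the stretch and -0.21 after it. Over all 348 informative genes of chromosome 14 outside the stretch, the flanks among them, it was -0.52, the lowest of 23 chromosomes in COV504, against -0.01 over all genes. In COV362 the same kind of flank was lower still, with a median of -0.92 against -0.33 over chromosome 14 outside the stretch, although none of the 9 genes was silent there. The other 5 lines had flank medians between 0.11 and 0.29. Elsewhere on chromosome 14, 1 of 98 genes more than 5 Mb before the stretch had no count in COV504. After it, 6 of 207 genes at more than 5 Mb had none, and all of the 16 and 27 within 5 Mb on either side had counts. That made 7 of 348 genes, against 153 of 10678 informative genes (1.43%) on all chromosomes, the run among them. The series measured RNA only, so a loss of DNA and an absence of transcription cannot be told apart.

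**Figure D3:**
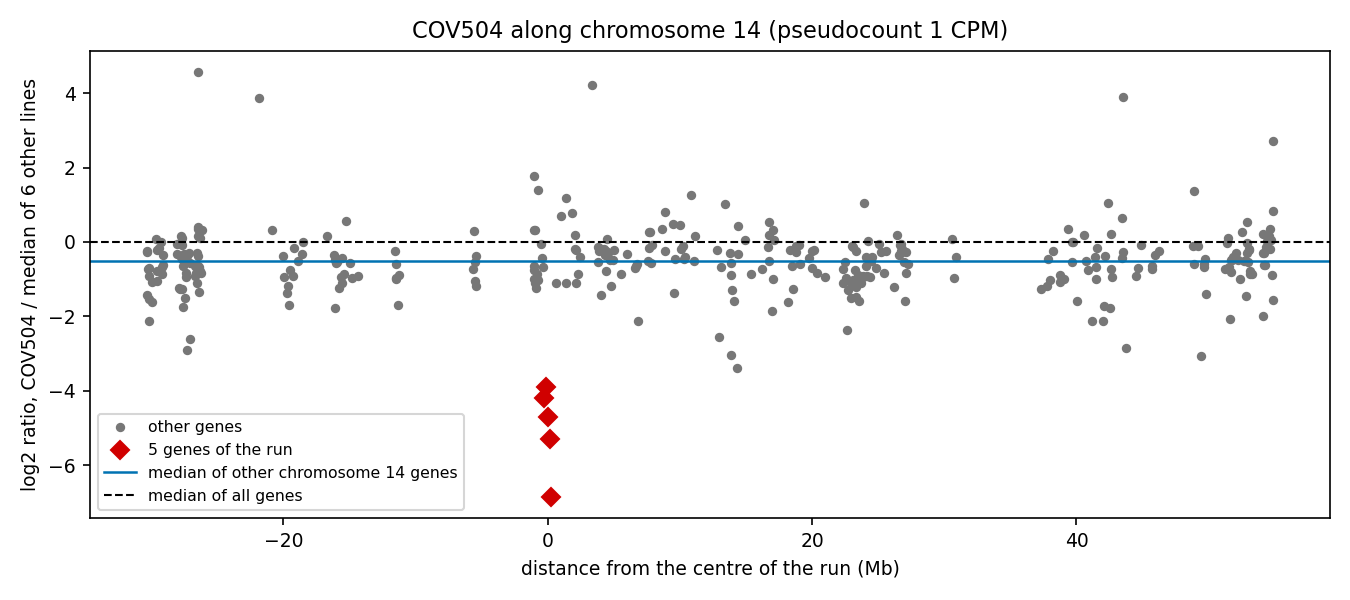
Log2 ratio of COV504 to the median of the 6 other lines (y axis, pseudocount 1 CPM) for each informative gene of chromosome 14, by distance from the centre of the run in Mb (x axis). The 5 genes of the run are red diamonds at the bottom, and the median of the other chromosome 14 genes (solid line, -0.52) lies below that of all genes (dashed line, -0.01).

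Of the 20 flanking genes, 17 were not on the list of 9 and could be compared with IGROV-1. COV504 was set against the 2 PromethION libraries of IGROV-1 with edgeR's quasi-likelihood test, Benjamini-Hochberg adjusted over 13030 genes, of which 43.5% passed an adjusted p of 0.05. Of the 17 flanking genes, 9 passed, 7 of them lower and 2 higher, where 19.6% and 24% of all genes did so, and the median change was -0.55 against 0.00 over all genes. Among the lower genes GNPNAT1, an enzyme of hexosamine synthesis, fell by 1.81 on the log2 scale (SE 0.27, edgeR adjusted p = 0.001) and C14orf166, a subunit of the tRNA ligase complex, fell by 1.07 (SE 0.17, edgeR adjusted p = 0.0015). The ribosome quality control factor NEMF, the small GTPase ARF6, the dynein assembly factor DNAAF2 and the integrin adaptor FERMT2 also fell, with log2 changes of -1.42, -0.94, -1.26 and -1.81. NID2, a basement membrane protein, was higher by 1.90 and RN7SL2, a signal recognition particle RNA, by 1.83. Without PromethION replicate 1 or 2 of IGROV-1, the change was 2.93 or 1.31 for NID2 and -2.27 or -1.12 for FERMT2, and neither call held when either MinION library was left out. COV362 against the same libraries had 10 of 17 called (42.5% of all genes), all lower, with a median of -1.13. C14orf166 alone of the 9 COV504 calls held in all 7 alternative analyses.

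The lines other than COV504 were then compared over the 9 genes themselves, whose choice rested on COV504. Every comparison set 1 library against the same 2 IGROV-1 PromethION libraries, so the 5 comparisons share their controls, and the spread comes from the IGROV-1 replicates, with 2 residual degrees of freedom. All 9 genes passed the filter on low counts, but ATL1 passed only through OVKATE, the line where it was highest.

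PYGL and NIN each passed the test in 4 of the 5 lines. In OVKATE, 5 of the 9 passed, against 49.2% of all genes: PYGL fell by 3.59 (SE 0.22, edgeR adjusted p = 9.8e-06), NIN fell by 2.60 (SE 0.24, edgeR adjusted p = 6.2e-05), and MAP4K5 and SAV1 had log2 changes of -1.30 and -1.06. ATL1, also counted among the 5, was at 7.4 CPM, against 0 and 1.3 in IGROV-1. Because it passed the filter only through OVKATE, its call there is no independent test. The fitted log2 change of 3.13 was 2.18 without PromethION replicate 1 and 6.92 without replicate 2. Leaving out MinION replicate 1 or 2 lost the edgeR call. Over all genes, 22.4% were lower in OVKATE and 26.8% higher. In COV362, 5 passed against 42.5%, all lower, where 18.8% of all genes were lower and 23.7% higher: PYGL fell by 2.07 (SE 0.19, edgeR adjusted p = 8.9e-05), NIN fell by 2.22 (SE 0.23, edgeR adjusted p = 0.00016) and TMX1 fell by 1.33 (SE 0.19, edgeR adjusted p = 0.00085). MAP4K5 and SAV1 had log2 changes of -2.28 and -0.80. In SK-OV-3, 4 passed against 41.8%, all lower, where 19.8% of all genes were lower and 22% higher: PYGL fell by 2.47 (SE 0.20, edgeR adjusted p = 4.5e-05), and NIN, TMX1 and SAV1 had log2 changes of -0.93, -0.87 and -0.79. Summed over both directions these counts were near the share of all genes called. The 17 flanking genes that are not on the list were compared in the same way. Their median log2 change was -0.54 in OVKATE, -1.13 in COV362 and -0.05 in SK-OV-3, in comparisons that share their IGROV-1 libraries.

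ATP5S was higher than in IGROV-1 in both OVMANA and OVTOKO. In OVMANA, 2 passed against 35.4% of all genes (18.9% higher and 16.5% lower): PYGL was higher by 0.68 (SE 0.16, edgeR adjusted p = 0.01) and ATP5S by 1.04 (SE 0.31, edgeR adjusted p = 0.029). In OVTOKO, 3 passed against 34.1% (18.2% higher and 15.9% lower): ATP5S was higher by 1.27 (SE 0.30, edgeR adjusted p = 0.013), TMX1 was higher by 0.79 and NIN was lower by 0.80 (log2 change -0.80). VCPKMT and SOS2 passed in none of the 5 lines, with log2 changes of -1.32 to -0.24 for VCPKMT and -0.85 to -0.07 for SOS2. The median over the 9 genes was 0.22 in OVMANA, -1.05 in OVKATE, 0.07 in OVTOKO, -0.79 in SK-OV-3 and -0.92 in COV362, against -0.01 to 0.04 over all genes. The calls that held in all 7 alternatives were those of PYGL and NIN in OVKATE and COV362, of PYGL in SK-OV-3 and of TMX1 in COV362. The SAV1 call held in only 1 of the 7 in SK-OV-3 and in 2 of the 7 in COV362. With DESeq2, 3 of the 9 genes were called in COV362, 2 in OVKATE, 1 in SK-OV-3 and 0 in OVMANA and OVTOKO. Of all 13030 genes it called 1565, 2095, 1672, 1442 and 1298 in the same lines. At an unadjusted p under 0.05 in DESeq2, OVMANA and OVTOKO had 1 of the 9 each, against 2539 and 2411 of all genes. Without MinION replicate 1, edgeR called 1 gene in OVMANA.

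**Figure D4:**
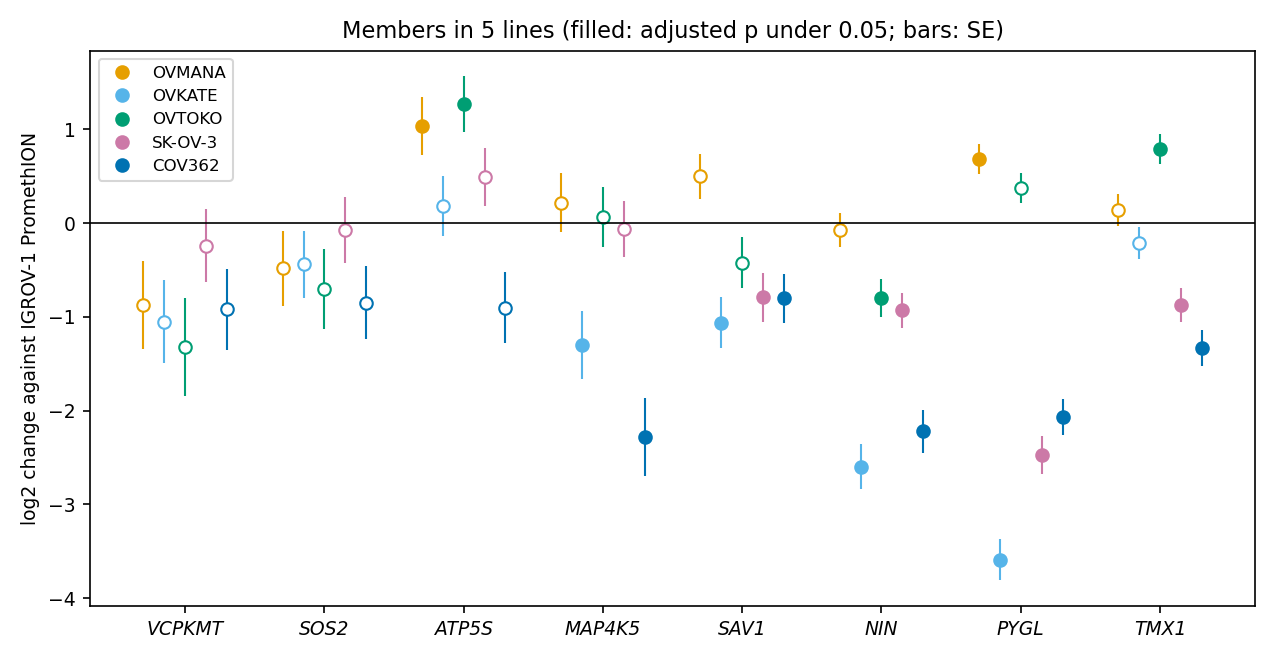
Log2 change of 8 of the 9 genes (x axis, in genome order; ATL1, with at most 1.3 CPM in IGROV-1, is left out) in 5 lines against IGROV-1 PromethION (y axis), with bars for the SE and filled points for an edgeR adjusted p under 0.05. PYGL spans -3.59 in OVKATE to 0.68 in OVMANA, and no VCPKMT or SOS2 point is filled.

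Within IGROV-1, the 9 genes could be compared between instruments with replicates on both sides. ATL1 did not pass the filter on low counts, and of the other 8 none was called by edgeR, fitted without a replicate term, at an adjusted p under 0.05, where 0.817% of 10041 genes were. At an unadjusted p under 0.05 there were 4 of the 8 in edgeR, against 1659 of the 10041 genes. DESeq2 called 0 of the 8 and 65 of the 10041. With the replicate number as a block, edgeR called 4 of the 8 (MAP4K5, NIN, PYGL and TMX1) and 1979 of the 10041 genes. Whether the numbers pair the libraries was not settled, so the result for these 4 depends on that choice. MAP4K5 had the largest difference: 24.2 ± 2.5 CPM (SD, n = 2) on the MinION against 13.9 ± 1.0 (SD, n = 2) on the PromethION, a log2 change of 0.75 (SE 0.21, edgeR adjusted p = 0.14). PYGL was at 244.2 ± 10.3 against 184.4 ± 1.0 CPM (log2 change 0.37, edgeR adjusted p = 0.2) and NIN at 51.8 ± 1.9 against 66.0 ± 0.9 (log2 change -0.39, edgeR adjusted p = 0.22). SAV1 was at 40.5 ± 9.1 against 36.0 ± 2.0 CPM and TMX1 at 166.8 ± 1.4 against 128.7 ± 13.7. The share of each transcript within its gene could be tested for PYGL and NIN. Neither passed (edgeR adjusted p = 0.58 and 0.82), where 5.98% of 2979 genes did.

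With SAV1 at 0 in COV504, a list of other Hippo genes was set beside it. Of 20 genes, chosen with earlier results of these data known, 12 passed the edgeR test in COV504 against IGROV-1 PromethION, 4 higher and 8 lower, where 43.5% of all genes passed. The median change was -0.17, against 0.00 over all genes. The count was 10 in OVMANA, 8 in OVKATE, 9 in OVTOKO, 12 in SK-OV-3 and 11 in COV362. Of all genes, 35.4%, 49.2%, 34.1%, 41.8% and 42.5% passed in these lines, which all had SAV1 counts. Whether the missing SAV1 counts had a part in the COV504 changes was not tested.

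Among the kinases and their partners, the changes in COV504 were mixed. STK3, which SAV1 binds, fell by 0.93, from 35.5 and 57.6 CPM in IGROV-1 to 25.8, a call that held in 1 of 7 alternatives (log2 change -0.53 without PromethION replicate 2). STK4 (log2 change 0.59), LATS1 (0.41), LATS2 (-0.19) and NF2 (-0.04) did not pass. Of the LATS cofactors MOB1A rose by 0.67 and MOB1B fell by 1.23, and the upstream scaffold WWC1 fell by 1.14. The coactivator YAP1 fell by 1.13 (SE 0.21, edgeR adjusted p = 0.0033), from 64.9 and 60.6 CPM to 30.3, whereas its relative WWTR1 stood at 217.1 CPM against 223.8 and 233.7 (log2 change -0.15, edgeR adjusted p = 0.44).

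The target genes of the pathway and the rest of the list did not share a direction either. CTGF (CCN2), a secreted matrix protein and a known YAP1 target, was at 61.8 CPM in COV504 against 0.4 and 0 in IGROV-1 PromethION (edgeR adjusted p = 1.3e-05). AXL, a receptor tyrosine kinase, was at 80.5 CPM against 0 and 0.4 (edgeR adjusted p = 1.8e-05). Neither level was particular to COV504: CTGF was at 299.2 CPM in OVKATE, and AXL at 79.2 in OVTOKO and 67.4 in SK-OV-3. CYR61 (CCN1) fell by 1.26 (SE 0.17, edgeR adjusted p = 0.00054), AJUBA and AMOTL2 had log2 changes of -1.12 and -1.0, and ANKRD1 did not pass (log2 change 0.73). Of the DNA-binding partners TEAD2 fell by 4.13 (SE 0.38, edgeR adjusted p = 7.3e-05), from 35.9 and 39.5 CPM to 2.2, and TEAD3 rose by 1.70. DESeq2 called 4 of the 20, against 1764 of all 13030 genes. The calls of CTGF, AXL, CYR61 and TEAD2 held in all 7 alternatives.

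**Figure D5:**
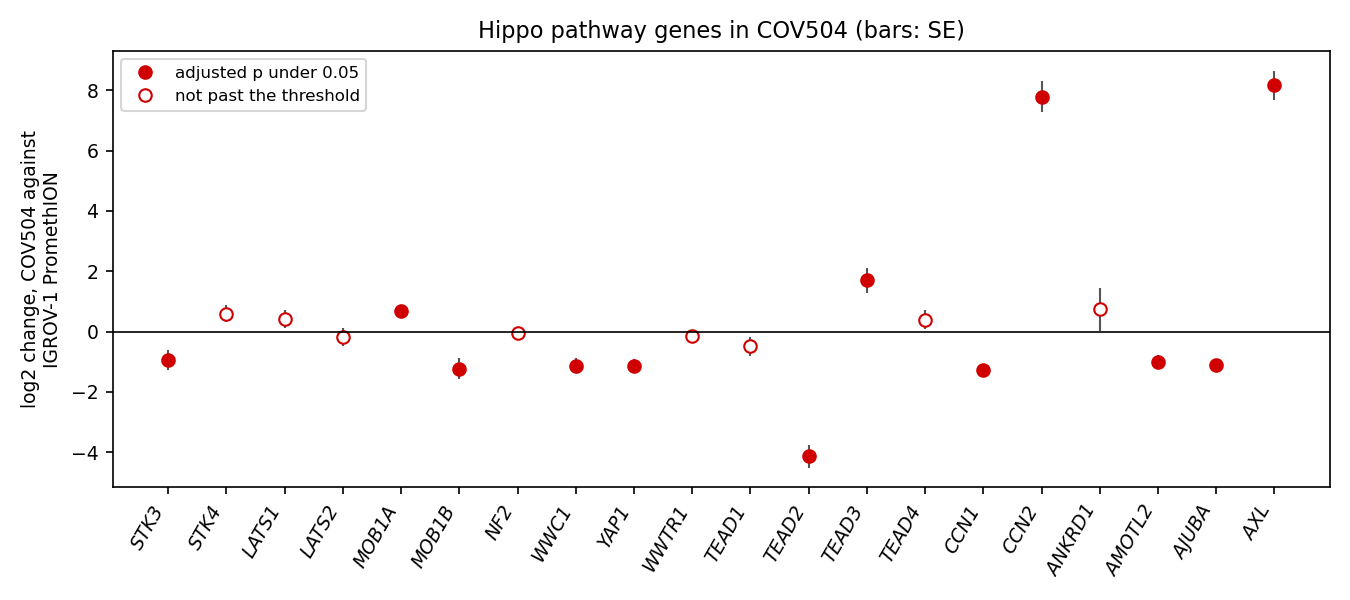
Log2 change of 20 Hippo pathway genes (x axis) in COV504 against IGROV-1 PromethION (y axis), with bars for the SE and filled points for an edgeR adjusted p under 0.05. CCN2 (CTGF in the files) and AXL are the highest at 7.79 and 8.17, fitted against IGROV-1 levels of 0 to 0.4 CPM, and TEAD2 is the lowest at -4.13.

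Relatives of the 9 genes elsewhere in the genome were above the floor of 3 counts in COV504, except PYGM and MAP4K1, each at 0.4 CPM. PYGB, the brain form of glycogen phosphorylase, was at 63.6 CPM in COV504 against 40.2 and 43.8 in IGROV-1 PromethION (log2 change 0.52, SE 0.19, edgeR adjusted p = 0.057), and SK-OV-3 had 255.3. PYGM, the muscle form, was at 2.0 CPM or less in every library and could not be tested. MAP4K4, a relative of MAP4K5, stood at 138.8 CPM against 111.1 and 143.5, while MAP4K3 fell by 2.12 (SE 0.28, edgeR adjusted p = 0.00059). For the atlastins, ATL2 fell by 2.43 (SE 0.22, edgeR adjusted p = 7e-05) and ATL3 rose by 0.72. DMAC2, the relative of ATP5S, fell by 1.00 (SE 0.22, edgeR adjusted p = 0.007). NINL, the relative of NIN, was at 4.0 CPM against 3.8 and 1.7.

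Of the thioredoxin-like relatives of TMX1, TMX4 rose by 3.20 (SE 0.44, edgeR adjusted p = 0.00072), from 2.1 and 6.9 CPM to 44.0, and OVKATE and SK-OV-3 had 77.7 and 76.0. TMX2 is joined with CTNND1 in the files, so its rise of 0.66 cannot be assigned to either gene. SOS1, the relative of SOS2, was at 19.6 CPM against 32.0 and 30.5 (log2 change -0.75, edgeR adjusted p = 0.061). In all, 16 of 17 relatives were tested and 6 passed, 3 higher and 3 lower, where 43.5% of all genes passed. Their median change was 0.13, and DESeq2 called 3 (MAP4K3, ATL2 and TMX4), against 1764 of all 13030 genes.

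Genes outside the stretch with the most similar pattern were sought by Pearson's r between log2(CPM + 1) of each of 10626 genes and the mean over the 9 genes, across the 8 PromethION libraries. The 5 highest were MTAP, joined in the files with AL359922.1 and CDKN2B-AS1 (r = 0.968), XBP1 (0.959), WDR89 (0.957), BCORL1 (0.955) and PRKCZ (0.952). All 5 were at their lowest in COV504, at 1.3, 0, 0.4, 0.4 and 1.8 CPM. WDR89 lies on chromosome 14 as well, at 63597039 to 63641861, and the others on chromosomes 9, 22, X and 1. These correlations are a description over 8 libraries in which COV504 stands apart for most of the 9 genes, and 2 of the libraries are of the same line.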

How the data were processed

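RNA of 7 ovarian cancer cell lines was sequenced in 10 nanopore libraries, made per the labels' protocols with a column RNA kit and a ligation sequencing kit. Reads were aligned with minimap2 2.24-r1122 to GRCh38, per the submitters' processing notes. The quantification tool, annotation release, read filters and use of strand were not given in the sources used here. Estimated counts per transcript, which need not be whole numbers, were deposited by the authors with a column named TPM. That deposited TPM equals the count divided by the library total and scaled to 1000000 (largest difference 5.64e-11), so it is not divided by length and is called CPM here. Transcript annotation came from the deposited table. It was checked against GENCODE 29, with 99.9% of transcripts matched and all 22 transcripts of the 9 genes at the same coordinates.

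Counts were summed per gene. Of the gene identifiers, 722 are joined names of several genes, and none of these is among the 9. For tests the sums were rounded to whole numbers and fitted with edgeR 4.0.16 (R 4.3.3) by quasi-likelihood, with TMM normalization, filtering on low counts by group and Benjamini-Hochberg adjustment over all genes tested, at an adjusted p under 0.05. Lines were compared with IGROV-1 PromethION in 1 fit of all 10 libraries, instruments in a fit of the 4 IGROV-1 libraries, and transcript shares with edgeR's test of differential usage. A gene was without counts below 1 estimated count, and fold bounds use a floor of 3 counts per library and take the level in the other lines as exact. Alternatives were DESeq2 1.42.0, other size factors, no filter, each IGROV-1 replicate left out, another informative limit and, for instruments, a replicate block. The scripts were tested on simulated data. Intervals and floors cover counting error only.

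The 9 genes and the lists of Hippo genes, relatives and cell markers were chosen with earlier results of these data known. Genes named in the text are the 9, the informative genes near them that a result touches, the other genes in the interval with at least 1 CPM in any library that a result touches, the called members of the lists with up to 4 that were not called, the 10 most highly expressed other genes absent from COV504, and the 5 most similar genes. Further listed genes, runs of other lines and AL358334.2 were named after their values were seen. Some results are not reported here.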

Additional observations from a re-analysis of the deposited data

How the results depend on the processing

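The run of 5 genes without counts in COV504 was found with the same start and end under every limit tried, and a limit of 1 CPM gave 8 genes. Each line but IGROV-1 rests on 1 library, so the calls for lines depend on the IGROV-1 replicates. Of 321 alternative values of 46 named calls, 259 kept the call and 62 lost it, 29 of them with DESeq2, and 14 calls held throughout. No result changed direction. The causes were not tested.

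With DESeq2 the number of genes called was 1764 in COV504, 1565 in COV362, 1672 in SK-OV-3, 1298 in OVTOKO, 2095 in OVKATE and 1442 in OVMANA, against 5672, 5544, 5446, 4443, 6405 and 4613 with edgeR. The share of calls that were higher moved from 53.5% to 66.9% in OVMANA and from 53.4% to 65.6% in OVTOKO. Of the 9 genes DESeq2 called 3 in COV362, 1 in SK-OV-3, 0 in OVTOKO, 2 in OVKATE and 0 in OVMANA, against 5, 4, 3, 5 and 2. It called 4 Hippo genes and 3 relatives. Leaving out each IGROV-1 replicate in turn gave 2890 to 4398 genes for OVTOKO, the lowest without MinION replicate 1, and 1 to 2 of the 9 genes in OVMANA.

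Between instruments, 82 genes were called by edgeR, 15 without a filter, and 4 to 209 when each library was left out (of the MinION libraries, 8 without replicate 1 and 4 without replicate 2; of the PromethION libraries, 209 without replicate 1 and 35 without replicate 2). Transcript usage was called in 178 genes, in 115 at a filter of 10 CPM and in 38 to 61 with a library left out. With the replicate number as a block, 1979 genes and 4 of the 9 (MAP4K5, NIN, PYGL and TMX1) were called. Same-numbered libraries deviated together (r = 0.356 across 10041 genes), and KRT18, for example, was at 262.7 and 243.6 CPM in the libraries numbered 1 and at 1041.2 and 1079.5 in those numbered 2. With only 2 pairs, and no label that says what a number marks, whether the numbers pair the libraries was not settled, and the fit without the block was kept.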

Other observations

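Outside the stretch, 21 genes with at least 3 CPM in each of the 6 other lines had no count in COV504. The most highly expressed was XBP1, the transcription factor of the unfolded protein response, on chromosome 22, with a median of 133.8 CPM over the other lines and 69.2 CPM in the lowest of them. The next were the hexokinase-like HKDC1 (median 34.4 CPM), the zinc finger gene ZNF274 (24.9), the homeobox gene MSX2 (24.6), CPNE8 (24.2) and SNTB1 (23.7). ARFIP1 (16.2), ELF4 (15.9), the stress kinase kinase MAP2K7 (15.8) and the lipid droplet gene LDAH (13.9) completed the 10 highest. They lie on chromosomes 22, 10, 19, 5, 12, 8, 4, X, 19 and 2, and none of the 10 lies on chromosome 14.

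After chromosome 14, the chromosomes with the lowest median log2 ratio of COV504 to the other lines were 10 (-0.44) and 4 (-0.36).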
